A study of Homo sapiens with 12 samples.

Results

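The lung adenocarcinoma line H1299 was compared with and without an shRNA against HDAC2. The comparison covers 6 of the 12 RNA-seq libraries of the series, 3 labelled H1299 with HDAC2 shRNA 1 (shHDAC2) and 3 labelled H1299 with a scrambled shRNA (scramble), which were chosen by their labels. The other 6 libraries are of the pancreatic line PANC-1 with an shRNA against FOSL1 or a scrambled shRNA. Both H1299 groups were kept in DMEM with 10% serum and carried an shRNA, so each comparison is between shRNAs and not with untreated cells. A single shRNA was used against HDAC2, so effects of its sequence on other transcripts cannot be told apart from those of HDAC2. Whether the replicates were transduced separately is not stated in the sources used here, and the p values measure the spread between these libraries only.

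HDAC2 is a class I histone deacetylase, an enzyme that removes acetyl groups from lysines of histones and of other proteins. It works with its close paralog HDAC1 inside large complexes (SIN3, NuRD, CoREST and MiDAC) that DNA-binding factors recruit to promoters and enhancers. Removal of acetyl groups is classically tied to repression of transcription, although these enzymes also sit at active genes. H1299 cells lack p53, have lost many lung epithelial features and express vimentin.

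Total counts were 16065723 to 18662018 in shHDAC2 libraries and 16580011 to 18503086 in scramble libraries. Mitochondrially encoded genes held 11.29% to 12.47% of the counts with HDAC2 shRNA and 11.8% to 13.01% with scrambled shRNA. Among the libraries, scramble replicate 1 differed most from its group (chi-square per degree of freedom 7.615 and 6.787 in its 2 pairs, against 3.855 between the other scramble libraries and 2.384 to 3.01 among shHDAC2 libraries). Its deviations from the mean of the 6 libraries rose with the GC content of transcripts (r = 0.44 across 16412 genes, which are not independent replicates). In the other libraries this correlation was between -0.25 and 0.03.

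Levels are given as CPM, counts per 1000000 counts of a library after TMM scaling, with the SD over 3 libraries. The mesenchymal filament gene VIM was high, at 1278 ± 7.40 CPM with HDAC2 shRNA and 1267 ± 50.2 CPM with scrambled shRNA, while lung epithelial markers were absent or low. The lung markers SFTPB and SCGB1A1 had at most 2 and 0 counts in a library, NAPSA did not exceed 1.147 CPM and NKX2-1, the lung lineage factor, did not exceed 3.15 CPM. The epithelial markers CDH1, EPCAM and KRT19 stayed below 0.9 CPM in each library, whereas the keratins KRT8 and KRT18 were high. Immune, fibroblast and endothelial defining markers were near or at 0, with at most 6 counts of CD3D, 3 counts of PTPRC and 0 counts of CDH5 in a library. The fibroblast collagen COL1A1 (3.501 to 6.14 CPM) and the endothelial adhesion gene PECAM1 (up to 2.91 CPM) were the highest of these and did not pass the test. PDGFRB, a receptor of fibroblasts and pericytes, fell to a mean of 0.371 ± 0.216 CPM, with 0.963 to 1.43 CPM in scramble libraries (log2 fold change -1.60, adjusted p = 0.0096). It was weakly expressed and was tested only because of its counts in scramble libraries.

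HDAC2 mRNA was at 80.9, 71.5 and 81.5 CPM in the shHDAC2 libraries and at 177, 187 and 196 CPM in the scramble libraries. The groups did not overlap, and 41.7% of the scramble level remained. In RNA from whole cultures, knockdown in fewer cells and less RNA per cell cannot be told apart, and this holds for every gene described. HDAC2 (ENSG00000196591.12, chromosome 6 of GRCh38, 113933028 to 114011308, minus strand) fell from 187 ± 9.15 to 77.9 ± 5.60 CPM (SD, n = 3 each), a difference of -1.26 ± 0.065 (standard error) on the log2 scale with an adjusted p of 5.4e-15 by edgeR's quasi-likelihood test and the Benjamini-Hochberg method, which gave all adjusted p values of this comparison. HDAC1, its paralog, rose slightly, from 216 ± 8.69 to 244 ± 7.24 CPM (log2 fold change 0.17, adjusted p = 0.0286). HDAC3, the catalytic subunit of the NCoR and SMRT complexes, had a log2 fold change of 0.16 (adjusted p = 0.098) and HDAC8 of -0.06 (adjusted p = 0.77), and neither passed. The HDAC8 difference changed sign without shHDAC2 replicate 3 and without scramble replicate 3. FOSL1, the target of the other shRNA of the series, was at 592, 645 and 614 CPM in shHDAC2 libraries and at 500, 451 and 448 CPM in scramble libraries, and so was not lowered here (log2 fold change 0.40).

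Partners of HDAC2 are read against the shares of all tested genes at an adjusted p under 0.05, which were 10.3% higher and 12.1% lower. Of 13 NuRD genes 1 fell and 0 rose, and of 12 CoREST and MiDAC genes 2 fell and 1 rose. Of 14 SIN3 genes 4 rose and 2 fell, with the adaptor SAP30L at -0.66 and BRMS1L at 0.40, although 1 or 2 rose without shHDAC2 replicate 1 or 3 or without scramble replicate 1 or 3. Among 7 other histone deacetylases HDAC6 (-0.47), HDAC7 (-0.27) and HDAC5 (-0.21) fell and 0 rose. Of 13 histone acetyltransferase genes, which encode the opposing enzymes, 1 rose and 0 fell.

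More genes fell than rose by a large margin. Of 16465 genes with enough counts, 238 rose (1.45%) and 924 fell (5.61%) at an adjusted p under 0.05 and a log2 fold change beyond 0.5 in either direction, and these are the called genes. With no limit on the fold, 1702 genes rose (10.3%) and 1993 fell (12.1%). For lists of genes, rose and fell refer to this second rule, and its shares over all tested genes are the background of each list. The median log2 fold change over all tested genes was -0.0049. Protein-coding genes made up 174 of the genes called higher and 753 of those called lower, and lncRNA genes 43 and 124.

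**Figure D1:**
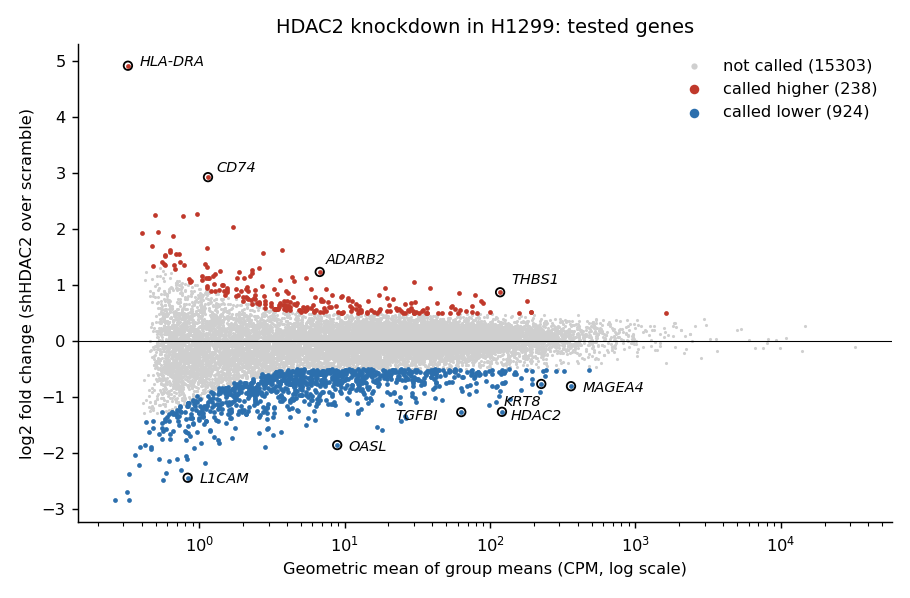
Log2 fold change of shHDAC2 over scramble H1299 cells (y axis) against the geometric mean of the 2 group means (x axis, CPM, log scale) for the 16465 tested genes, with called genes in red (higher) and blue (lower). Called genes lie mostly below 0, and the largest increase is that of HLA-DRA, at 4.92.

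The share of called genes depended on the level and on the GC content of the transcripts. Genes at a mean of 1 to 5 CPM over the 6 libraries had a median log2 fold change of -0.12, with 361 of 3436 called lower and 100 called higher. Genes above 100 CPM had a median of 0.05, with 39 of 2057 called lower and 7 called higher. Called genes that fell had a median GC content of 56.6%, those that rose 46.7% and genes not called 48.9%. Among lists described below, the median was 57.8% for neuronal and for epithelial genes and 57.0% for HLA class I genes. It was 56.5% for ATF4 genes, 56.1% for collagens and matrix, 51.3% for replication-dependent histones and 50.4% for interferon-stimulated genes. For lists with more increases it was 45.3% for mitosis, 47.5% for nucleotide synthesis, 47.7% for heat shock genes and 47.7% for the citric acid cycle. It was 50.7% for DNA replication and S phase and 52.3% for cytosolic ribosomal proteins. The shares over all tested genes, against which lists are read, are not matched for GC content or level. In the quintile of genes with the highest GC content 395 were called lower and 34 higher, and in the lowest quintile 65 and 63. With the trend on GC content removed from each library, an alternative added after seeing the data, the highest quintile had 268 called lower and 63 higher and the lowest quintile 98 and 33. In that fit the median log2 fold change was 0.008 in both quintiles, in place of 0.09 in the lowest and -0.10 in the highest. Over all genes that fit gave 244 genes called higher and 811 genes called lower. Leaving out scramble replicate 1, the library whose deviations followed GC content most, gave 217 genes called higher and 853 genes called lower.

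**Figure D2:**
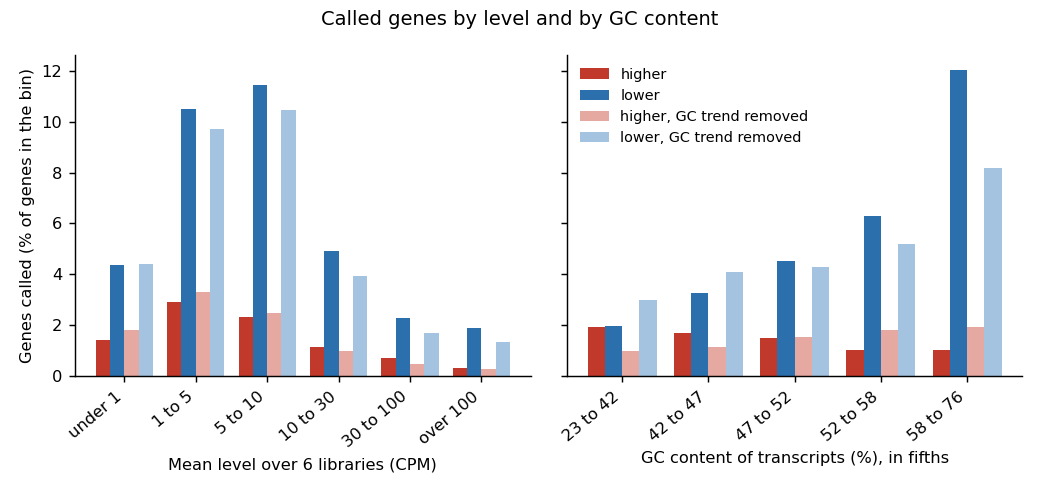
Genes called higher or lower (y axis, percent of the genes in each bin) by mean level over the 6 libraries (left, CPM) and by quintile of transcript GC content (right, percent), with dark bars for the fit as described and pale bars for the fit without the GC trend. The share of genes called lower is largest at 1 to 10 CPM and at high GC content, where removing the trend changes the number called lower from 395 to 268 and the number called higher from 34 to 63.

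Interferon-stimulated genes were mostly lower. Interferons signal through JAK kinases to a complex that holds STAT2 and IRF9 and binds the interferon-stimulated response element (ISRE) in the promoters of antiviral genes. Of 36 such genes 30 had enough counts, and 24 fell, 1 rose and 5 did not pass, with a median log2 fold change of -0.70. That is 80% of the tested members lower, against 12.1% of all genes.

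OASL, which encodes an antiviral protein related to the oligoadenylate synthetases, was at 4.63, 5.08 and 4.32 CPM in shHDAC2 libraries and at 16.03, 15.6 and 18.95 CPM in scramble libraries. The log2 fold change, -1.85 ± 0.131 (standard error) with an adjusted p of 4.5e-12, was the largest decrease among called genes at 5 CPM or more whose groups did not overlap. The IFIT genes encode proteins that bind foreign RNA. IFIT3 was at 10.3, 8.26 and 10.8 CPM with HDAC2 shRNA and at 24.0, 33.1 and 27.8 CPM with scrambled shRNA. IFIT3 thus kept 34.6% of its scramble level (log2 fold change -1.53, standard error 0.117, adjusted p = 2.3e-11). IFIT2 had a log2 fold change of -1.42, IFIT1 of -1.14 and IFIT5 of -0.37, and each passed the test. LIPA and another gene overlap 13.6% of the exon bases of IFIT2.

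ISG15, a ubiquitin-like modifier, was at 16.7, 15.1 and 17.2 CPM in shHDAC2 libraries and 42.9, 38.6 and 44.7 CPM in scramble libraries. No shHDAC2 library came near the scramble range, and the log2 fold change was -1.37 (standard error 0.089, adjusted p = 5.8e-13). The ISG15 protease USP18 (-0.73) and the ligases HERC5 (-0.64) and HERC6 (-0.89) also fell on the log2 scale. So did the RNA sensors IFIH1 (-0.67), RIGI (-0.55, another gene overlapping 43.2% of its exons) and DDX60 (-0.94), and the synthetases OAS1 (-2.10), OAS2 (-2.10) and OAS3 (-0.50). OAS1 and OAS2 were weakly expressed, at 1.12 ± 0.461 and 1.47 ± 0.566 CPM in scramble cells (SD, n = 3), and were tested only because of their counts there.

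Factors of the interferon response gave smaller differences. IRF7, a factor that amplifies the response, fell by 0.42 on the log2 scale (adjusted p = 0.028, with overlapping groups). STAT2 was at 51.6 ± 1.05 and 51.9 ± 5.95 CPM (-0.01, adjusted p = 0.96), and its sign changed in 3 alternatives. IRF9 (-0.44, adjusted p = 0.34), IFI35 (-0.21, adjusted p = 0.12), IFITM2 (-0.13, adjusted p = 0.34) and BST2 (-1.13, adjusted p = 0.055) did not pass either. IFI27 was the exception, at 2.87 ± 0.163 CPM with HDAC2 shRNA and 1.51 ± 0.354 CPM with scrambled shRNA (log2 fold change 0.93, adjusted p = 0.0084). CMPK2, IFI44L, IFITM1, MX2, RSAD2 and XAF1 had too few counts to test, with a mean below 0.5 CPM in both groups.

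**Figure D3:**
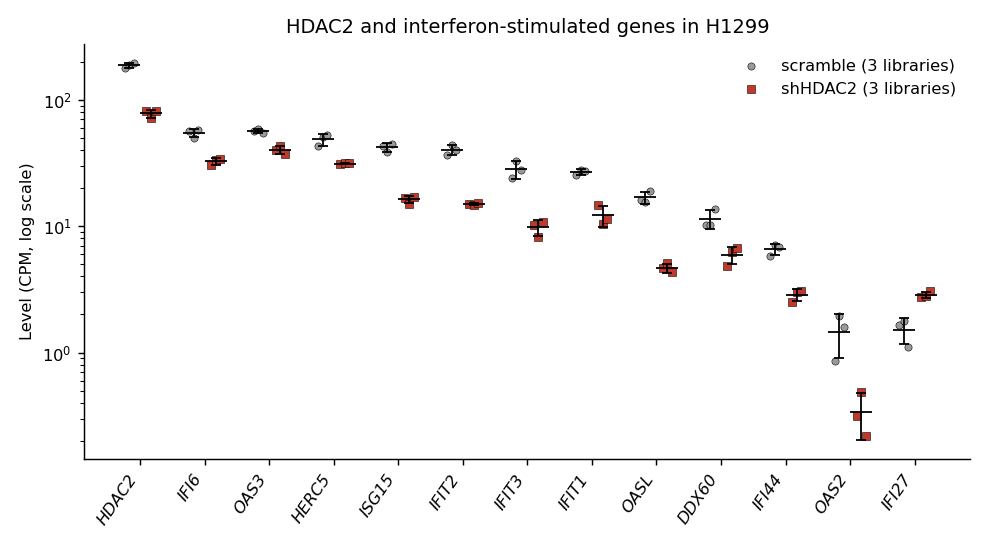
Levels (y axis, CPM, log scale) of HDAC2 and 12 interferon-stimulated genes in each H1299 library, with grey circles for scramble, red squares for shHDAC2 and bars for the mean and SD (n = 3). The shHDAC2 libraries lie below the scramble libraries for each gene drawn except IFI27, where they lie above.

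The list was made of interferon-stimulated genes, so the frequency of the ISRE in their promoters describes the list and not an effect of the knockdown. RefSeq promoter windows of GRCh38.p14 were matched for 27 of the 36 genes, and the 250 bases before the transcription start were searched on both strands for the core of the ISRE, GAAANNGAAA. The core was present in 17 of the 27 windows, against 3.07% of 27305 windows of all genes. Of the 17 matched genes that fell, 13 held it, and so did IFI27, the only member that rose. BST2, which did not pass, and IFI44L and IFITM1, which had too few counts to test, held it too. OASL, OAS2 and IFIT2 had no matched window, and the window of OAS1 held no match. The 4 genes with a match and the largest decreases are printed to show this element, 5′ to 3′ on the strand of the gene, with each match in capitals (overlapping matches run together). The windows are chr10:89327747-89327996 for IFIT3, chr1:1013247-1013496 for ISG15, chr1:78649539-78649788 for IFI44 and chr10:89392373-89392622 for IFIT1, all on the plus strand.
IFIT3: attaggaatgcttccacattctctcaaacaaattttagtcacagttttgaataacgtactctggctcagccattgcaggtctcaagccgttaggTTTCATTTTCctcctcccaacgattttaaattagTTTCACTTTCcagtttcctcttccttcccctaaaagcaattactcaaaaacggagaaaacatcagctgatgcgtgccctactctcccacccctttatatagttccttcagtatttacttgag
ISG15: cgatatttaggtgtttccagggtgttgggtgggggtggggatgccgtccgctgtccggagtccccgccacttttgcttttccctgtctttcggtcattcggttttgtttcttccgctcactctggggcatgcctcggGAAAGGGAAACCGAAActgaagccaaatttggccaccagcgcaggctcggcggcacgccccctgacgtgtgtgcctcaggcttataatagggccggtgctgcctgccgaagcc
IFI44: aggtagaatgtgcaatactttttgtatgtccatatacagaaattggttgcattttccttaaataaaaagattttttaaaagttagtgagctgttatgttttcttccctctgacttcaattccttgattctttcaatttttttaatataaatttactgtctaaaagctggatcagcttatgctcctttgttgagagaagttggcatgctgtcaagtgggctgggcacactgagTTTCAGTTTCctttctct
IFIT1: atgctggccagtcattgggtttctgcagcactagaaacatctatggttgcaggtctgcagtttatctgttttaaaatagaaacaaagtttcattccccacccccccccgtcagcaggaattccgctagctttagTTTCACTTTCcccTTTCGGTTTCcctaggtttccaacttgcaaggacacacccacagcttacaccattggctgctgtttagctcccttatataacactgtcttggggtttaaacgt
A match describes letters only, and no binding was measured.

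In the FOSL1 knockdown of PANC-1 cells 14 of 31 tested interferon-stimulated genes rose and 8 fell. Of the 24 genes that fell in H1299, 11 rose there and differed between the knockdowns by an interaction test over all 12 libraries. That test alone called 33.8% of 18505 genes, a share that does not require opposite directions. The shares of all genes that rose or fell in PANC-1 are not reported here, so these numbers describe the members only. Cell line and target differ together in that comparison and cannot be told apart.

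Genes that present peptides on HLA class I, which report the content of the cell to cytotoxic T cells, fell too. Of 16 tested genes 11 fell, 0 rose and 5 did not pass, with a median log2 fold change of -0.37. HLA-B was at 395, 410 and 396 CPM with HDAC2 shRNA and at 602, 544 and 564 CPM with scrambled shRNA. The groups were clearly apart (log2 fold change -0.51, standard error 0.056, adjusted p = 4.3e-08), although 47.3% of the exon bases of HLA-B overlap other genes and related HLA genes may share its reads. NLRC5, the transactivator of class I genes, fell from 7.43 ± 0.855 to 4.56 ± 0.303 CPM (log2 fold change -0.71, adjusted p = 0.0011). The peptide-trimming protease ERAP1 (-0.54) and the immunoproteasome subunit PSMB8 (-0.44) also fell. Without shHDAC2 replicate 1 or 3, 7 genes of the list passed.

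Among HLA class II genes, by contrast, 4 of the 13 members rose (HLA-DRA, CD74, HLA-DRB1 and CIITA), 3 did not pass and 6 had too few counts to test. HLA-DRA, CD74 and HLA-DRB1 were tested only because of their counts in shHDAC2 libraries, where they were high, so this number is a description of the members and not support for a change of the group. Class II molecules present peptides to helper T cells and are normally confined to specialised antigen-presenting cells or induced through the transactivator CIITA. HLA-DRA had 18, 25 and 55 counts in the shHDAC2 libraries and 0, 1 and 2 counts in the scramble libraries. The highest scramble library thus lay far below the lowest shHDAC2 library, and shHDAC2 replicate 3 held more than the other 2 together. The ratio of summed counts was 34.4 (95% exact interval 11.4 to 170 for counting error only, 98 against 3 counts), and the fitted log2 fold change was 4.92 (standard error 0.624, adjusted p = 5.5e-07).

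CD74, the invariant chain that guides class II molecules, had 57, 51 and 53 counts with HDAC2 shRNA and 3, 9 and 10 with scrambled shRNA. From 0.411 ± 0.209 to 3.19 ± 0.340 CPM (SD, n = 3), its log2 fold change was 2.93 (standard error 0.342, adjusted p = 1.3e-07). HLA-DRB1 had 23, 33 and 30 against 4, 7 and 8 counts (log2 fold change 2.23, adjusted p = 1.0e-04). CIITA went from 20, 20 and 19 counts with scrambled shRNA to 40, 35 and 33 counts (log2 fold change 0.95, adjusted p = 0.018). For each of these 4 genes every shHDAC2 library lay above every scramble library, at levels that remained below 4 CPM. Exons of CIITA overlap other genes over 21.6% of their bases, and reads of HLA-DRB1 may be shared with HLA-DRB5.

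The other class II genes did not follow. HLA-DMA (0.05, adjusted p = 0.88), HLA-DMB (-0.22, adjusted p = 0.60) and HLA-DPA1 (-0.28, adjusted p = 0.46) did not pass the test, and HLA-DMA turned negative without shHDAC2 replicate 2. Among the members with too few counts, HLA-DRB5 had 8, 8 and 5 counts in shHDAC2 libraries and 3, 0 and 1 in scramble libraries, whereas HLA-DQB1 stayed at 0.471 ± 0.0931 and 0.576 ± 0.148 CPM. HLA-DPB1, HLA-DQA1, HLA-DOA and HLA-DOB were below 0.5 CPM on average in both groups. With at least 10 counts required in every library, CIITA alone of the 4 genes was still tested, and it passed.

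**Figure D4:**
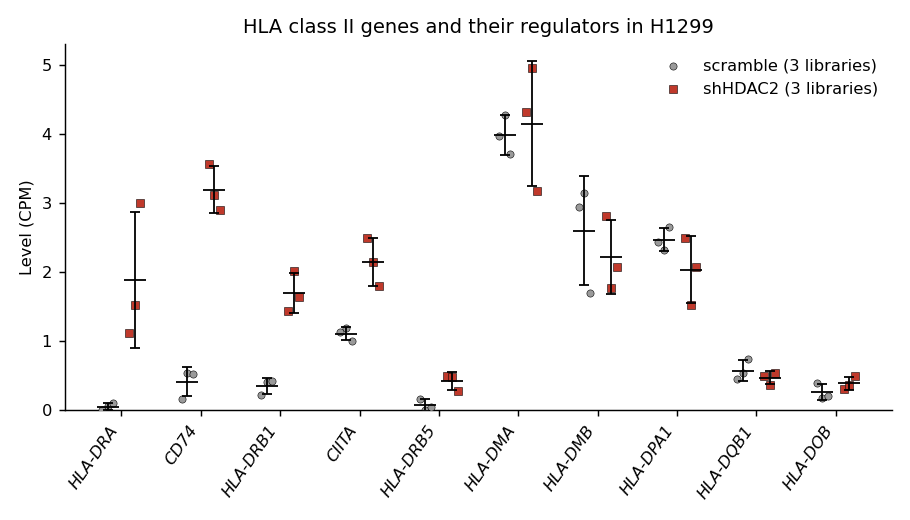
Levels (y axis, CPM) of HLA class II genes, CD74 and CIITA in each H1299 library, with grey circles for scramble, red squares for shHDAC2 and bars for the mean and SD (n = 3). HLA-DRA, CD74, HLA-DRB1, CIITA and HLA-DRB5 are higher in each shHDAC2 library, while HLA-DMA, HLA-DMB and HLA-DPA1 overlap.

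Class II promoters carry a Y box, an inverted CCAAT sequence, close to the transcription start. The letters CTGATTGG were found in 4 of 11 matched windows of the list (HLA-DRB1, HLA-DRB5, HLA-DQB1 and HLA-DMA), against 3.98% of all windows. The window of CD74 held no match, and HLA-DRA and CIITA had no matched window and so were not searched. The promoter of HLA-DRB1, the gene with a match that rose, lies at chr6:32589849-32590098 on the minus strand, with the Y box in capitals.
HLA-DRB1: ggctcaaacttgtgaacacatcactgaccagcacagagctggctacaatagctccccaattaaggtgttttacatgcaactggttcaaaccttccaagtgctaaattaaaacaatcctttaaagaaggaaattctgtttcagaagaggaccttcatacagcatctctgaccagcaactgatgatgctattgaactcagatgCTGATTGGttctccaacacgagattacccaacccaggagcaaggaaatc
HLA-DMA, which did not pass the test, and HLA-DQB1, which had too few counts for it, hold the same letters.

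Weakly expressed genes that become detectable after the knockdown were few. A gene was counted as gained where each scramble library was under 0.1 CPM and each shHDAC2 library held at least 10 counts, and as lost in the reverse case. By this rule 0 genes were gained and 0 lost. With under 0.2 CPM in place of 0.1 CPM, 2 genes were gained (HLA-DRA and the lncRNA gene AC004471.1) and 2 lost (CNTNAP2, a neurexin family cell adhesion gene, and the pseudogene RPL30P11). With 0.2 CPM and at least 5 counts, 18 were gained and 57 lost, so losses outnumbered gains. Those gained included CXCL8, the neutrophil chemokine interleukin-8, with 6, 6 and 5 against 0, 1 and 3 counts. Those lost included the interferon-induced chemokine gene CXCL11, with 0, 1 and 1 against 8, 8 and 10 counts. Both genes were chosen after their values were seen.

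The number of genes detected did not increase either. At an equal depth of 16065723 counts, 16011 to 16165 genes had at least 10 counts in shHDAC2 libraries and 16240 to 16529 in scramble libraries. The groups did not overlap, and the means differed by -331 genes (exact two-sided permutation test, p = 0.1, the smallest that 3 libraries against 3 allow). At 1 count or more the groups overlapped, with 25658 to 25809 genes against 25468 to 26434 (difference -369, exact permutation p = 0.4).

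Histone genes themselves fell. Of 14 replication-dependent histone genes of the list 10 had enough counts, and 10 fell, with a median log2 fold change of -0.68. H2AC6, an H2A gene, was at 30.9, 30.03 and 32.7 CPM in shHDAC2 libraries and at 54.6, 55.5 and 55.9 CPM in scramble libraries. Replicates were tight and the groups far apart (log2 fold change -0.83, standard error 0.074, adjusted p = 6.6e-10). H2BC5 fell by 0.75, H2AC8 by 0.74 and H3C2 by 0.92 on the log2 scale. Among 10 linker histones and replacement variants 5 fell and 0 rose, and 3 fell without shHDAC2 replicate 1. Transcripts of replication-dependent histones mostly end without a poly(A) tail, so their counts depend on how the RNA was selected.

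Genes of the cell cycle rose slightly at the same time. Of 22 genes of DNA replication and S phase 13 rose and 1 fell (median log2 fold change 0.22), and of 22 mitotic genes 13 rose and 1 fell (median 0.20), against 10.3% of all genes higher. PCNA, the sliding clamp of DNA polymerase, rose from 149 ± 5.90 to 188 ± 5.05 CPM (log2 fold change 0.34, adjusted p = 7.7e-05). The helicase subunit MCM4 (0.28) and the licensing factors CDC6 (0.28) and CDT1 (0.29) rose, while CCNE1, cyclin E1, fell (-0.57, adjusted p = 2.2e-04). TOP2A (0.37), CENPF (0.36) and AURKB (0.35) rose among mitotic genes and AURKA fell (-0.23). The count for S phase was 7 without shHDAC2 replicate 1 and 8 without shHDAC2 replicate 2. CDK6 went from 158 ± 17.2 to 227 ± 5.80 CPM (log2 fold change 0.52). The CDK inhibitors CDKN2C (0.52) and CDKN1B (0.30) rose, and CDKN1C (-1.24) and the cyclin gene CCND2 (-1.28), both weakly expressed, fell.

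The amino acid response driven by the transcription factor ATF4 fell, with a larger spread between libraries. ATF4 turns on genes of amino acid synthesis and uptake when amino acids are short or the endoplasmic reticulum is stressed. Of 25 genes 15 fell, 1 rose and 9 did not pass, with a median log2 fold change of -0.30. PCK2, the mitochondrial phosphoenolpyruvate carboxykinase, was at 25.2, 35.8 and 36.3 CPM in shHDAC2 libraries and at 64.0, 59.6 and 79.1 CPM in scramble libraries (log2 fold change -1.06, adjusted p = 2.4e-09). PSAT1, an enzyme of serine synthesis, was at 62.3, 94.2 and 89.3 CPM against 156, 147 and 182 CPM (log2 fold change -0.98, adjusted p = 2.0e-09). For both genes shHDAC2 replicate 1 was the lowest library and scramble replicate 3 the highest, without overlap of the groups.

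The cystine transporter SLC7A11 did overlap, at 14.7, 30.2 and 29.2 CPM with HDAC2 shRNA and 26.3, 43.0 and 49.7 CPM with scrambled shRNA (log2 fold change -0.68, adjusted p = 0.0028). ALDH1L2 (-0.94), which handles mitochondrial folate, and the stress protein gene NUPR1 (-1.29) also fell. ATF4 itself was the member that rose, from 412 ± 27.5 to 467 ± 35.7 CPM, with overlapping groups (log2 fold change 0.18, adjusted p = 0.032). The number of members that fell was 7 without shHDAC2 replicate 1, 7 without scramble replicate 3 and 9 with DESeq2. In the PANC-1 comparison 10 of the 15 genes rose and differed by the interaction test. The share of all genes that did so is not reported here, so this number describes the members only. The letters TGATGNAA, a core of the element that ATF4 binds, were found in 2 of 20 matched promoter windows of the list, in 0 of 10 matched genes that fell and in 3.19% of all windows. GDF15, a stress-induced cytokine, was at 4.31, 13.1 and 13.6 CPM against 32.6, 25.3 and 36.4 CPM (log2 fold change -1.59, standard error 0.183, adjusted p = 9.7e-08), again with shHDAC2 replicate 1 lowest.

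Chaperones and ribosomal proteins rose by small amounts. Of 15 heat shock and cytosolic chaperone genes 12 rose, 0 fell and 3 did not pass, with a median log2 fold change of 0.33. HSPA8, the constitutive HSP70, had the largest increase in absolute level of all called genes, by 568 CPM. It went from 1508, 1358 and 1243 to 2058, 1859 and 1896 CPM, with no overlap (log2 fold change 0.50, standard error 0.062, adjusted p = 3.6e-07), and 15.1% of its exon bases overlap other genes, small nucleolar RNA genes among them. HSPA1B (0.55), HSPE1 (0.51) and HSPA1A (0.49) rose as well, and HSPA1A and HSPA1B are near-identical copies whose reads can be split between them. Of 30 cytosolic ribosomal protein genes 21 rose and 0 fell, with a median of 0.21, and 29 rose without scramble replicate 1 and 14 without shHDAC2 replicate 3. Ribosome biogenesis had 6 of 20 genes higher and 0 lower, with GNL3 at 0.44 and NCL, nucleolin, at 0.30.

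**Figure D5:**
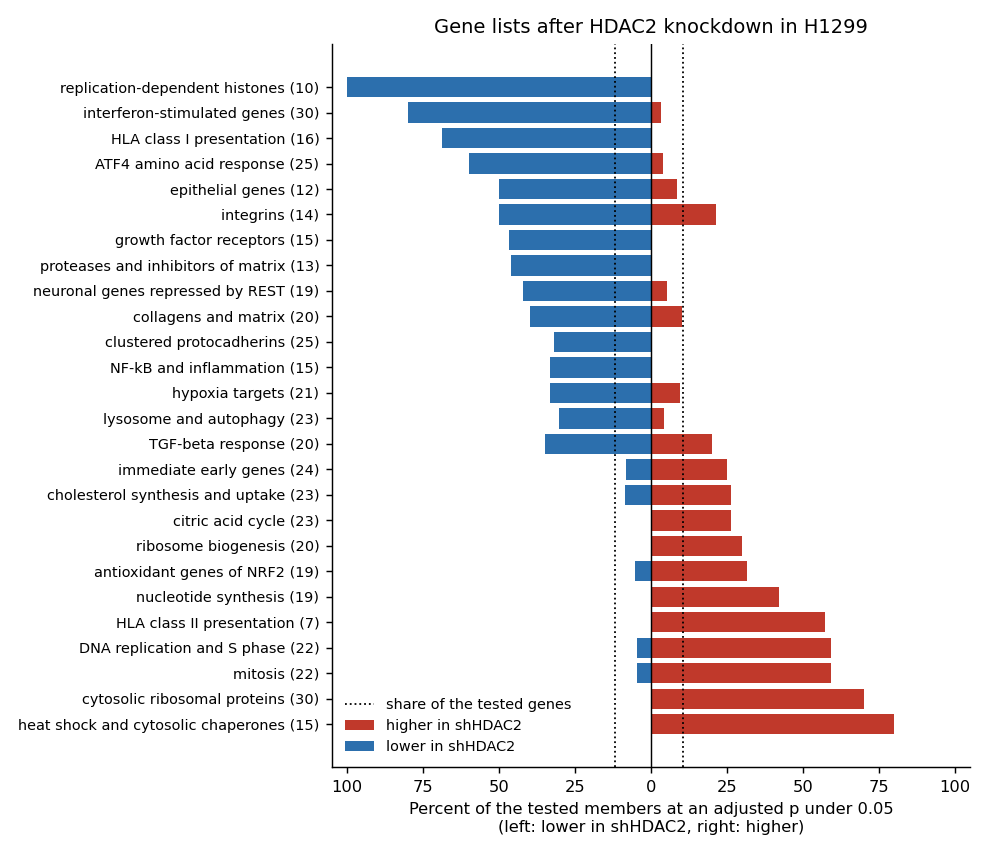
Percent of the tested members of 26 gene lists that were lower (left, blue) or higher (right, red) in shHDAC2 cells at an adjusted p under 0.05, with the number tested in brackets and dotted lines at the shares of all tested genes (12.1% and 10.3%). The lists drawn were chosen after their values were seen, and interferon-stimulated genes reach 80% lower and heat shock genes 80% higher. In the HLA class II list, HLA-DRA, CD74 and HLA-DRB1 were tested only because of their counts in shHDAC2 libraries. That bar therefore describes the members and is not support for a change of the group.

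Neuronal genes did not rise as a group. Class I deacetylases serve the repressor REST, which silences neuronal genes in other tissues. Of 19 tested genes that REST represses 8 fell, 1 rose and 10 did not pass, with a median log2 fold change of -0.56. That is 42.1% lower and 5.26% higher, against 12.1% and 10.3% of all tested genes. The tested members had a median GC content of 57.8%, close to the 56.6% of all genes called lower. L1CAM, a neural adhesion molecule, had 6, 4 and 8 counts in shHDAC2 libraries and 42, 33 and 29 in scramble libraries. Its level fell to 17.98% of that in scramble cells (log2 fold change -2.44, standard error 0.388, adjusted p = 2.1e-05). L1CAM was tested only because of its counts in scramble libraries, so the 42.1% that includes it describes the members only. UNC13A (-1.38), the neurofilament gene NEFL (-1.29) and the calcium channel gene CACNA1H (-1.04) fell too, all weakly expressed, and SNAP25 rose (0.34). Of 25 clustered protocadherin genes 8 fell and 0 rose (median -0.44), but only 2 to 5 without shHDAC2 replicate 2 or 3 or scramble replicate 2 or 3, and neighbours in these clusters share exons. Of 29 HOX genes 6 fell and 2 rose, with HOXA5 at 50.1% of its scramble level and HOXB5 at 0.34 on the log2 scale, and 3 fell without scramble replicate 3. Of 31 embryonic transcription factors 4 rose (12.9%) and 3 fell (9.68%), near the shares over all genes, with LHX1 at -1.56 and KLF2 at 0.56 on the log2 scale.

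Adhesion, matrix and epithelial genes changed in both directions, with more decreases. KRT8, a simple epithelial keratin, was at 175, 172 and 171 CPM in shHDAC2 libraries and at 314, 285 and 280 CPM in scramble libraries (log2 fold change -0.76, standard error 0.059, adjusted p = 3.0e-11). Its partner KRT18 fell from 297 ± 13.5 to 193 ± 9.14 CPM (log2 fold change -0.62). Of 12 tested epithelial genes 6 fell and 1 rose (CLDN4, 0.48). Of 13 tested mesenchymal genes 4 rose and 2 fell. FN1, fibronectin, rose from 472 ± 21.98 to 614 ± 27.2 CPM (log2 fold change 0.38), and CDH2, N-cadherin, rose by 0.26 on the log2 scale. S100A4 fell (log2 fold change -0.71, adjusted p = 0.038), and VIM did not pass (0.01, adjusted p = 0.90).

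Of 20 genes of collagens and matrix 8 fell and 2 rose. The laminin genes LAMA3 (-0.78) and LAMA4 (-0.63) and the collagen gene COL6A2 (-0.54) fell. THBS1, the matrix glycoprotein thrombospondin-1, was at 162, 164 and 150 CPM with HDAC2 shRNA and at 85.5, 90.4 and 83.8 CPM with scrambled shRNA (log2 fold change 0.87, standard error 0.063, adjusted p = 6.3e-12). COL13A1, a transmembrane collagen, rose by 0.95. Matrix proteases and their inhibitors had 6 of 13 genes lower and 0 higher, with the gelatinases MMP2 at -1.50 (9.12 ± 0.568 to 3.23 ± 0.738 CPM) and MMP9 at -0.83. Of 14 integrin genes 7 fell, ITGA7 (-0.96) and ITGB4 (-0.60) among them, and 3 rose, with ITGB8 at 0.63.

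Genes of the TGF-beta and Notch pathways changed in both directions, with 4 of 20 TGF-beta genes higher and 7 lower. TGFBI, a secreted protein induced by TGF-beta, was at 42.2, 37.6 and 42.7 CPM in shHDAC2 libraries and at 92.8, 101 and 101 CPM in scramble libraries. The shHDAC2 level was 41.6% of that in scramble cells (log2 fold change -1.27, standard error 0.071, adjusted p = 3.2e-14). The latent TGF-beta binding proteins LTBP1 (-0.77), LTBP2 (-0.59) and LTBP4 (-0.53) and the ligand TGFB1 (-0.54) fell. The inhibitors of differentiation, classical BMP targets, rose, with ID3 at 224, 231 and 232 CPM against 146, 133 and 140 CPM (log2 fold change 0.71, adjusted p = 1.2e-10), ID2 at 0.67 and ID1 at 0.53, and the inhibitory SMAD6 rose by 0.53. Of 12 Notch pathway genes the receptors NOTCH3 (-0.79) and NOTCH1 (-0.39), the ligand JAG2 (-0.36) and HES4 (-0.35) fell, which became 2 genes without shHDAC2 replicate 1, while the ligand JAG1 (0.69) and the target HES1 (0.69) rose.

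Among all called genes at 5 CPM or more, the largest increases were moderate. ADARB2, a brain-enriched protein of the ADAR family of RNA editors, was at 8.94, 11.6 and 10.4 CPM in shHDAC2 libraries and 4.36, 4.28 and 4.50 CPM in scramble libraries (log2 fold change 1.24, standard error 0.146, adjusted p = 1.7e-07). The glutamate transporter SLC1A3 (1.12), PITHD1 (1.06), COL13A1, the ubiquitin ligase NEDD4 (0.94), the nuclear receptor NR4A3 (0.93), THBS1, APMAP (0.86), the phosphodiesterase PDE4B (0.83) and the complement component C5 (0.82) made up the rest. On the side of decreases, OASL, GDF15, IFIT3, MMP2, IFIT2 and ISG15 were joined by the sodium channel subunit SCNN1A (-1.40), the junctophilin JPH3 (-1.38), the receptor kinase TYRO3 (-1.33) and ADAMTSL4 (-1.30). By absolute level MAGEA4, a cancer-testis antigen, fell most, from 476 ± 32.6 to 273 ± 5.94 CPM (log2 fold change -0.80, adjusted p = 7.7e-12). HLA-B, PRRC2B (-0.90), KRT8 and LTBP4 followed. Next to HSPA8 the largest absolute increases were those of ID3, THBS1, the actin-binding ANLN (0.52) and CDK6.

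Metabolic genes are the subject of the study, which defines metabolic meta-programs (MMPs), sets of 30 metabolic genes that vary together across malignant cells. Over all tested genes 10.3% were higher and 12.1% lower. MMP10, for amino acid metabolism, had the largest share of lower genes, with 14 of 30 lower, 1 higher and a median log2 fold change of -0.21. PCK2, ASS1 (-1.05), PSAT1 and SLC7A11 had its largest decreases, and GCLM, a subunit of the enzyme that starts glutathione synthesis, rose (0.48). Part of the list is shared with the ATF4 list, and 9 genes fell without shHDAC2 replicate 1 and 9 without scramble replicate 3. MMP4, for glycolysis, had 8 of 27 genes lower and 3 higher (median -0.04), with the lactate transporter SLC16A3 at -0.40 and GAPDH at 0.21, and 5 lower without shHDAC2 replicate 2. MMP12, for oxidative phosphorylation, had 7 of 29 higher and 2 lower (median 0.11), with 15 higher without scramble replicate 1 and 4 without shHDAC2 replicate 1. The set MMP2, for steroid metabolism, had 6 of 30 higher (20%) and 1 lower (3.33%, median 0.08), and 3 higher without shHDAC2 replicate 3.

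Lists of single metabolic pathways gave the following counts. Of 21 glycolytic enzyme genes 4 fell, GPI (-0.32) and PGK1 (-0.20) among them, and 1 rose, and without shHDAC2 replicate 2 or 3 the decreases were 1 and 2. Of 23 citric acid cycle genes 6 rose and 0 fell, with SUCLA2 at 0.41 and CS, citrate synthase, at 0.27. Nucleotide synthesis had 8 of 19 genes higher and 0 lower, with PPAT, the first committed enzyme of purine synthesis, at 0.44 and IMPDH2 at 0.38, and 4 were higher without shHDAC2 replicate 2, without shHDAC2 replicate 3 or without scramble replicate 2. Cholesterol synthesis and uptake had 6 of 23 higher and 2 lower, with INSIG1, a regulator of sterol synthesis, at 0.47, and 10 were higher without scramble replicate 1. Hypoxia targets had 7 of 21 lower and 2 higher, with VEGFA at -0.65, BNIP3 at -0.72 and ADM at 0.59, and 4 were lower without scramble replicate 3. Of 23 lysosome and autophagy genes 7 fell and 1 rose, led by the protease gene CTSD (-0.84, with 48.0% of its exon bases shared with other genes), and 4 fell without shHDAC2 replicate 1 or 3. Of 26 nuclear-encoded respiratory chain genes 1 rose and 25 did not pass.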

How the data were processed

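RNA-seq libraries of H1299 cells with HDAC2 shRNA 1 or a scrambled shRNA (3 each, grouped by their labels) were analysed from a table of counts per gene for 60668 genes. The authors made these counts before they deposited them, with STAR 2.7.2b and featureCounts 2.0.1 on GRCh38 per the submitters' processing notes, which also name cutadapt and FastQC. Libraries were prepared from total RNA with the NEBNext Ultra kit. The strand setting and the annotation release are not given in the sources used here, so overlapping and antisense genes may share reads. The study's methods describe viral transduction and puromycin selection of H1299 and PANC-1 cells for shRNAs against FOSL1.

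Counts were tested with edgeR 4.0.16 (R 4.3.3, filterByExpr, TMM scaling, quasi-likelihood F test, Benjamini-Hochberg adjustment over all tested genes). Called genes had an adjusted p below 0.05 together with a change beyond 0.5 on the log2 scale. A single model over all 12 libraries gave the interaction of cell line with knockdown. Depth was 16065723 to 18662018 counts per library, and intervals cover counting error only. Alternatives were DESeq2 1.42.0, limma 3.58.1 (voom), other scalings, filters and thresholds, a replicate block, a fit of all 12 libraries, and each library left out. Removal of the GC trend was chosen after seeing the data. The procedure was tested on simulated data.

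The members and the 82 gene lists were chosen with earlier results of these data known. Genes were named by a rule: class I deacetylases, the 10 largest changes in each direction among called genes at 5 CPM or more without overlap, the 5 largest changes in CPM in each direction among called genes, up to 4 genes per direction in a list described, and gained or lost genes. Other genes of a described list and key library values are given to account for its members. Positions and exon overlaps came from GENCODE 44, matched by gene ID for 60295 genes. Promoter sequences came from RefSeq (GRCh38.p14). Python 3.11.15 drew the figures. Some results are not reported here.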

Additional observations from a re-analysis of the deposited data

Results flagged for a closer look

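The effect of HDAC2 shRNA in H1299 cells differed from that of FOSL1 shRNA in PANC-1 cells by the interaction test of edgeR for many genes that passed in both cell lines with opposite directions. The 7 given here have the largest such differences, up to 3 from each of the lists on interferon, HLA class II and ATF4. For each gene the difference is the log2 fold change in H1299 minus that in PANC-1, from 3 libraries in each of 4 groups. The 33.8% of all genes that passed this test is the background for these calls, and it does not require opposite directions. Cell line and target differ together and cannot be told apart.

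CD74 differed by 3.69 (adjusted p = 6.7e-08), with 2.93 in H1299 and -0.78 in PANC-1. OASL differed by -3.52 (adjusted p = 1.5e-08), with -1.85 and 1.64. IFIT3 differed by -3.40 (adjusted p = 1.0e-11), with -1.53 and 1.85, and IFIT2 by -3.15 (adjusted p = 1.4e-14), with -1.42 and 1.71.

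Of ATF4 target genes, NUPR1 differed by -2.82 (adjusted p = 2.7e-08), with -1.29 in H1299 and 1.52 in PANC-1. PCK2 differed by -1.91 (adjusted p = 6.1e-12), with -1.06 and 0.83. SLC7A11 differed by -1.90 (adjusted p = 1.3e-06), with -0.68 and 1.197, and its H1299 groups overlapped.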

How the results depend on the processing

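Without a fold threshold 1702 genes were higher and 1993 lower, and beyond an absolute log2 fold change of 1 the numbers were 55 and 259. Over the alternatives that kept the thresholds, 180 to 265 genes were called higher and 745 to 987 lower. Leaving out each library in turn gave 192 to 265 and 765 to 872, and an HDAC2 difference of -1.29 to -1.20. In the same fits the interferon-stimulated genes lower were 19 to 23, ATF4 target genes lower 7 to 18, MMP10 genes lower 9 to 16, HLA class I genes lower 7 to 10, HLA class II genes higher 3 to 4 and S phase genes higher 7 to 17. DESeq2 gave 9 ATF4 target genes lower, and at least 10 counts in every library left 1 HLA class II gene higher. Gained and lost genes were 2 and 2 under 0.2 CPM and 1 and 4 with at least 5 counts, and ranged from 0 to 1 for both when a library was left out. The cause of these shifts was not tested.

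The HDAC8 difference on the log2 scale ranged from -0.19 to 0.018, with 0.012 without shHDAC2 replicate 3. HLA-DMA ranged from -0.094 to 0.22. The STAT2 log2 fold change ranged from -0.073 to 0.087, with 0.0095 without shHDAC2 replicate 3 and 0.0099 with the GC trend removed, an alternative chosen after seeing the data.

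Same-numbered libraries did not deviate together (r = -0.018, -0.047 and 0.033 across genes), so the replicate numbers were not treated as pairs. A fit with the replicate block called 231 genes higher and 892 lower, 95.7% of the called genes among them, with HDAC2 at -1.26.

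A single shRNA, 3 libraries a group and a scramble library that differed with GC content limit these comparisons, and genes under 1 CPM rest on few counts. Expression of protein, histone acetylation and binding were not measured.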

Other observations

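Several gene groups not described above moved in part, against 10.3% of all tested genes higher and 12.1% lower. Of 24 immediate early genes 6 rose (25%) and 2 fell (8.33%), with FOS at 0.50, FOSB at 0.47 and JUNB at -0.18 on the log2 scale. Of 15 NF-kB and inflammation genes 5 fell and 0 rose, among them the chemokine gene CXCL2 (-0.42), the subunit RELB (-0.36) and the adhesion gene ICAM1 (-0.34). Of 19 NRF2 targets 6 rose and 1 fell, with NQO1 at 0.34 and HMOX1 at 0.33. Of 15 growth factor receptors 7 fell and 0 rose, with ERBB3 at -0.68 and IGF1R at -0.28, and 3 or 4 fell without shHDAC2 replicate 2 or 3 or scramble replicate 2. IGFBP6, an IGF binding protein, was at 10.4, 9.72 and 9.51 CPM with HDAC2 shRNA and 20.9, 20.2 and 22.2 CPM with scrambled shRNA (log2 fold change -1.10, edgeR adjusted p = 2.0e-09), whereas IGFBP3 rose (0.90).

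Hedgehog pathway genes, chosen after their values were seen, did not move in 1 direction. The ligand gene SHH was at 26.1, 23.5 and 26.8 CPM in shHDAC2 libraries and 15.6, 13.3 and 15.9 CPM in scramble libraries (log2 fold change 0.77, edgeR adjusted p = 6.1e-07). HHIP, a membrane protein that binds the ligand, rose from 1.48 ± 0.251 to 3.59 ± 0.968 CPM (log2 fold change 1.27). The pathway's transcription factor GLI1 fell from 12.2 ± 3.00 to 5.61 ± 0.848 CPM (log2 fold change -1.11, adjusted p = 2.8e-06), and the receptor PTCH1 had a log2 fold change of -0.11 (adjusted p = 0.41). Also chosen after their values were seen, ESRRB, an orphan nuclear receptor gene, rose from 6, 11 and 6 counts to 20, 42 and 45 counts, and the chemokine gene CCL5 fell from 37, 23 and 36 counts to 11, 4 and 9 counts.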
